A study of Homo sapiens with 4 samples.

Results

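The OAS, MX and RNA-targeting antiviral effectors are a set of interferon-stimulated genes that was taken here by name: OAS1, OAS2, OAS3, OASL, MX1, ISG15, ISG20, RSAD2 and BST2. Of these 9 names, 8 were symbols in a count table of 12912 genes, and OAS1 was reached by its identifier only. The cells were 786-O, a human clear cell renal carcinoma line without functional VHL, the substrate-recognition subunit of a ubiquitin ligase that marks HIF for degradation. 786-O-Ctrl was the VHL-null subline, and 786-O-VHL was the subline restored with a retroviral vector for HA-tagged VHL. RNA was taken from the triple-reporter versions of both sublines, which carry a fusion of thymidine kinase, GFP and luciferase, grown in RPMI1640 with serum and no further treatment. Each group had 2 libraries and was 1 subline, so the comparison is between these sublines. Whether the libraries of a group came from separate cultures is not given in the sources used here, and the p-values then measure the spread between libraries. Whether 786-O-Ctrl carried an empty vector is not given in the sources used here, and if it did not, the VHL protein and its vector cannot be told apart.

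Cells that detect viral RNA secrete interferons, which act through JAK kinases and STAT transcription factors on genes that carry an interferon-stimulated response element. OAS1, OAS2 and OAS3 are enzymes that bind double-stranded RNA and make 2′-5′-linked oligoadenylates, a second messenger that triggers RNA decay, whereas OASL has lost this activity and acts on RNA sensing by RIG-I. MX1 is a dynamin-like GTPase that traps viral nucleoproteins, ISG15 is a ubiquitin-like protein, ISG20 is an RNA exonuclease, RSAD2 encodes viperin, which makes a chain-terminating nucleotide, and BST2 encodes tetherin, which holds budding virions at the cell surface.

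Of the 8 effectors tested, 5 were higher in 786-O-VHL, 1 was lower and 2 were not called at an FDR under 0.05 (edgeR quasi-likelihood test, adjusted over 12335 genes). RSAD2 and ISG20 rose most, by 8.39 and 8.21 times, followed by OASL, OAS2 and ISG15. OAS3 fell 1.89-fold, and MX1 and BST2 had log2 fold changes of 0.22 and 0.05 that did not pass. Among all genes tested 32.6% were called higher and 31.9% were called lower, so a call by itself is common in this comparison. RSAD2, ISG20 and OASL also passed a 4-fold change with an FDR under 0.01, which 2.92% of all genes did in the same direction. The median log2 fold change of the 8 was 1.45, beside 0.02 over all genes tested. Both 786-O-VHL libraries lay above both 786-O-Ctrl libraries for 5 effectors and below them for 1, and the groups overlapped for 2; the background was 40.8% of genes above and 39.2% below. In bulk RNA of a culture, fewer expressing cells and less RNA per cell cannot be told apart. No two-sided exact permutation test of 2 libraries against 2 can go below a p of 0.33, and the FDR values depend on edgeR's estimate of spread, which borrows from all genes.

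**Figure D1:**
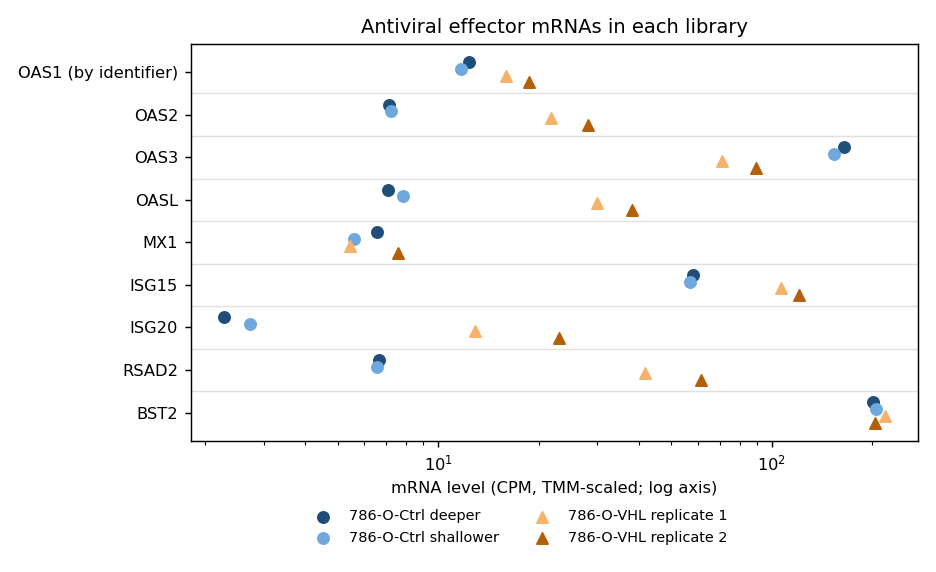
Level of each effector in CPM (counts relative to the TMM-scaled library total, log axis), with 1 point per library for the 2 786-O-Ctrl and 2 786-O-VHL libraries and OAS1 taken by identifier. RSAD2, ISG20, OASL and OAS2 lie between 2.28 and 7.84 CPM in 786-O-Ctrl and between 12.9 and 61.3 CPM in 786-O-VHL, OAS3 moves the opposite way, and the points of MX1 and BST2 overlap.

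**Figure D2:**
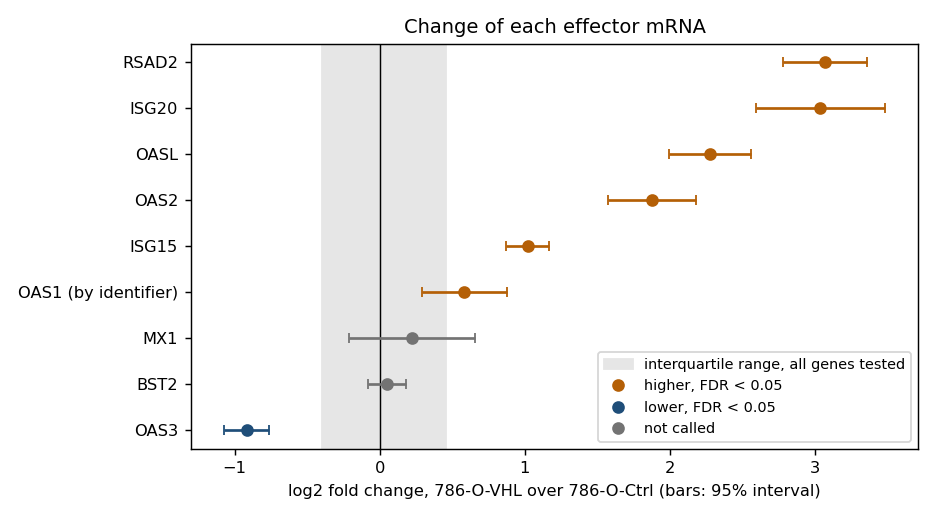
Log2 fold change of each effector, 786-O-VHL over 786-O-Ctrl, with the 95% interval of the edgeR fit as bars, and the interquartile range of all 12335 genes tested (-0.40 to 0.46) as a shaded band. RSAD2 and ISG20 lie near 3, OAS3 is the only point below 0, and the intervals of MX1 and BST2 include 0.

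The sequencing depth was uneven: 786-O-VHL replicate 1 held 2807779 counts, and the other libraries held between 15714166 and 22141263. In that replicate 3 counts correspond to 1.02 CPM, against 0.142 to 0.199 CPM in the others. The headers give both 786-O-Ctrl columns the same name, so those libraries are called the deeper and the shallower. VHL mRNA itself rose from 43.4 ± 0.741 to 171 ± 10.5 CPM (SD, n = 2 each; log2 fold change 1.96, SE 0.0706, edgeR FDR = 2.86e-19), in the direction of the labels, although counts per gene do not separate the vector transcript from the endogenous one. Of 7 renal carcinoma markers, 6 were matched and expressed. PAX8, PAX2, KRT8 and VIM (4) were called lower in 786-O-VHL, CDH6 was called higher and KRT18 was not called. Their log2 fold changes ran from -1.21 (VIM) to 0.45 (CDH6). Such calls are common, with 31.9% of all genes tested called lower and 32.6% called higher. Of 7 leukocyte markers, only CSF1R and CD14 had a row, and their summed level was 13.7 to 14.2 CPM in 786-O-Ctrl and 2.67 to 4.41 CPM in 786-O-VHL. PTPRC, CD3E, CD79A, LYZ and ITGAM were not analysed here. Of 4 endothelial markers, KDR and PECAM1 were matched, with at most 9 counts in any library. Of 4 fibroblast markers, 3 were matched, with a summed level of 10.4 to 11.4 CPM in 786-O-Ctrl and 14.6 to 15.3 CPM in 786-O-VHL, and their part in the results was not tested.

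OAS1, OAS3 and OAS2 stand side by side on the plus strand of chromosome 12 (GRCh37), at chr12:113343661-113371024, chr12:113375856-113414265 and chr12:113416200-113449528, with 4831 and 1934 bases between neighbours. OASL lies 8006037 bases beyond OAS2 on the minus strand, at chr12:121455566-121477049. A long noncoding RNA gene (ENSG00000257452) is annotated on the opposite strand across the 3 adjacent genes, and since the use of strand in the counting is not given in the sources used here, reads of the 2 strands cannot be told apart for them.

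These neighbours moved in opposite directions. OAS3 (ENSG00000111331.13), the largest OAS protein and a sensor of long double-stranded RNA, had 164 and 154 CPM in the 786-O-Ctrl libraries and 70.9 and 89.4 CPM in 786-O-VHL replicates 1 and 2. Every 786-O-VHL value was below every 786-O-Ctrl value, and the log2 fold change was -0.92 (SE 0.0766, 95% interval -1.07 to -0.76, edgeR FDR = 2.5e-11). The paper lists the OAS3 protein among those ubiquitinated and lower in 786-O-VHL, the same direction as its mRNA.

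OAS2 (ENSG00000111335.12), the next gene downstream, had 7.12 and 7.24 CPM in 786-O-Ctrl and 21.7 and 28.0 CPM in 786-O-VHL. The groups did not overlap, and OAS2 rose by 1.88 on the log2 scale (SE 0.148, 95% interval 1.57 to 2.18, edgeR FDR = 7.46e-12).

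OASL (ENSG00000135114.12), the member without synthetase activity, had 7.08 and 7.84 CPM in 786-O-Ctrl and 29.9 and 38.1 CPM in 786-O-VHL. Mean levels were 7.46 ± 0.542 and 34.0 ± 5.85 CPM (SD, n = 2 each), and OASL rose by 2.27 on the log2 scale (SE 0.138, 95% interval 1.99 to 2.56, edgeR FDR = 2.63e-14), and again the groups did not overlap.

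The identifier of OAS1 (ENSG00000089127.13) stands in the table beside the symbol AC004551.1, and its row is given by identifier and left out of the counts of effectors. It had 12.4 and 11.7 CPM in 786-O-Ctrl and 15.9 and 18.8 CPM in 786-O-VHL, which do not overlap (log2 fold change 0.58, SE 0.143, edgeR FDR = 0.000779). This call rested on the deeper 786-O-VHL library, and without replicate 2 the log2 fold change was 0.39 (edgeR FDR = 0.186).

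Ratios of counts within a library are free of any scaling between libraries and show the turn within the family. OASL had 4.32% and 5.1% of the counts of OAS3 in the 786-O-Ctrl libraries, against 42.1% and 42.7% in the 786-O-VHL libraries. OAS2 had 4.34% and 4.71% of the counts of OAS3 in 786-O-Ctrl, against 30.6% and 31.4% in 786-O-VHL, and the OAS1 row had 7.56% and 7.61% against 22.5% and 21.0%. The log2 ratios to OAS3 thus differed between the groups by 3.17 for OASL, 2.78 for OAS2 and 1.52 for OAS1, while replicates of a group lay close together. Of all counts on the 4 genes, which are not scaled for length, OAS3 held 86.0% and 85.2% in 786-O-Ctrl, against 51.2% and 51.3% in 786-O-VHL. OASL held 3.71% and 4.35% in 786-O-Ctrl, against 21.6% and 21.9% in 786-O-VHL. OASL and OAS2 moved more alike, with ratios of OASL to OAS2 counts of 0.993 and 1.08 in 786-O-Ctrl, against 1.38 and 1.36 in 786-O-VHL.

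**Figure D3:**
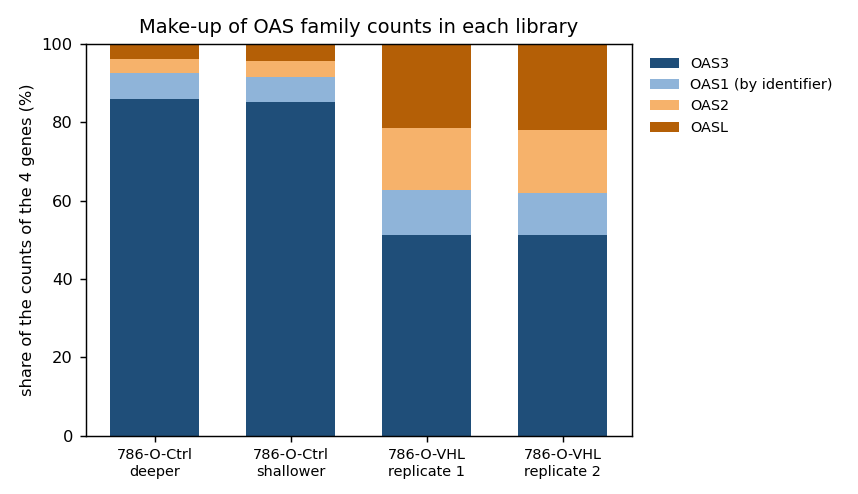
Share of the counts of the 4 OAS family genes that each gene held, in percent, as 1 stacked bar per library, with OAS1 taken by identifier. OAS3 takes 85.2% to 86.0% of a 786-O-Ctrl bar and 51.2% to 51.3% of a 786-O-VHL bar, and the shares of OASL, OAS2 and OAS1 widen.

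Of the genes that act on 2-5A signalling beyond the synthetases, ABCE1 and PDE12 are given, and 786-O-VHL had none (0) of these higher and 2 lower. A call is common here, with 32.6% of all genes tested higher and 31.9% lower. ABCE1, a ribosome recycling factor that also restrains 2-5A signalling, fell from 79.5 ± 3.43 to 54.9 ± 8.99 CPM (SD, n = 2 each; log2 fold change -0.45, edgeR FDR = 2.17e-05). PDE12, which degrades oligoadenylates, had a log2 fold change of -0.25 (edgeR FDR = 0.0163). Its call was lost without the deeper 786-O-Ctrl library (edgeR FDR = 0.0988), without the shallower one (edgeR FDR = 0.106) and without 786-O-VHL replicate 2 (edgeR FDR = 0.0639).

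ISG15 (ENSG00000187608.10), at chr1:936518-949920 on the plus strand of GRCh37, encodes a protein that is attached to newly made proteins during the interferon response and is also secreted, and 2 long noncoding RNA genes overlap it on the other strand. Its mRNA stood at 58.0 and 56.8 CPM in 786-O-Ctrl and at 107 and 121 CPM in 786-O-VHL. The groups were separate, with a log2 fold change of 1.02 (SE 0.0718, 95% interval 0.87 to 1.17, edgeR FDR = 6.86e-13). Its rise was smaller than that of OASL, and ISG15 counts per OASL count went from 8.19 and 7.24 in 786-O-Ctrl to 3.57 and 3.17 in 786-O-VHL.

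The mRNAs of the enzymes that attach and remove ISG15 moved the same way. Of the 6 genes of this list, 6 were higher in 786-O-VHL and none (0) was lower, with a median log2 fold change of 0.82. Over all genes tested, 32.6% were called higher and 31.9% lower, with a median log2 fold change of 0.02. UBE2L6, the conjugating enzyme, had 60.3 and 62.0 CPM in 786-O-Ctrl and 165 and 159 CPM in 786-O-VHL (log2 fold change 1.39, edgeR FDR = 1.47e-16). For its protein the paper reports the opposite direction, listing UBE2L6 among proteins that were ubiquitinated and lower in 786-O-VHL. OAS3, whose mRNA was lower, is on the same list. HERC5, the main ligase in human cells, rose from 15.1 ± 0.803 to 34.3 ± 0.536 CPM (SD, n = 2 each; log2 fold change 1.19, edgeR FDR = 5.15e-10). TRIM25, a ubiquitin ligase of RIG-I that also conjugates ISG15, and HERC6, a ligase related to HERC5, rose by 0.90 and 0.73 on the log2 scale. The activating enzyme UBA7 (log2 fold change 0.61, edgeR FDR = 5.78e-06) and the deconjugating protease USP18 (0.41, edgeR FDR = 0.0366) complete the list and are named as the rest of the list, both outside the rule for named genes and after their values were seen. The call of USP18 was lost without the deeper 786-O-Ctrl library (edgeR FDR = 0.112), without the shallower one (edgeR FDR = 0.232) and without 786-O-VHL replicate 2 (edgeR FDR = 0.362), which left 5 of the 6 genes higher.

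ISG20 (ENSG00000172183.15), at chr15:89178901-89199714 on the plus strand, encodes an exonuclease that degrades single-stranded RNA. It had few counts, 48 and 41 in 786-O-Ctrl (2.28 and 2.72 CPM) and 38 and 389 in 786-O-VHL (12.9 and 23.1 CPM). The groups were far apart, but the 786-O-VHL libraries also differed from each other, and the counting error of replicate 1 alone spans 9.12 to 17.7 CPM (95% Poisson interval). The log2 fold change was 3.04 (SE 0.218, 95% interval 2.59 to 3.48, edgeR FDR = 1.03e-12), and it was 2.37 without 786-O-VHL replicate 2 (edgeR FDR = 4.75e-06), so the call stood while the fold was smaller by more than 1.5 times. Neither related exonuclease gene that was tested passed: ISG20L2 had a log2 fold change of -0.08 (edgeR FDR = 0.399) and AEN of 0.17 (edgeR FDR = 0.0847), while REXO4 was not analysed here. Without 786-O-VHL replicate 1 AEN was called higher (0.27, edgeR FDR = 0.000878).

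RSAD2 (ENSG00000134321.12), at chr2:7005688-7038370 on the plus strand, encodes viperin, a radical SAM enzyme that converts CTP into an RNA chain terminator. It had 6.65 and 6.58 CPM in 786-O-Ctrl and 41.7 and 61.3 CPM in 786-O-VHL, the highest fitted fold change of the effectors. The 786-O-Ctrl libraries were nearly equal and far below both 786-O-VHL libraries, with a log2 fold change of 3.07 (SE 0.140, 95% interval 2.78 to 3.36, edgeR FDR = 4.98e-17). RSAD2 and ISG20 kept about the same proportion, with 0.343 and 0.414 ISG20 counts per RSAD2 count in 786-O-Ctrl, against 0.309 and 0.377 in 786-O-VHL.

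The start of RSAD2 overlaps CMPK2 on the opposite strand by 1079 bases. Since the use of strand in the counting is not given, reads of the 2 genes in this overlap cannot be told apart by strand. The same limit holds for the opposite-strand genes that overlap ISG15 and MX1. CMPK2 encodes a nucleotide kinase that supplies CTP, the substrate of viperin, and it had 2.8 and 2.39 CPM in 786-O-Ctrl and 3.73 and 5.82 CPM in 786-O-VHL (log2 fold change 1.03, SE 0.273, edgeR FDR = 0.00168). The groups did not overlap, but CMPK2 was not called once 786-O-VHL replicate 2 was left out (0.50 on the log2 scale, edgeR FDR = 0.461). FDPS, a farnesyl diphosphate synthase that viperin is known to bind, fell from 113 ± 1.72 to 41.4 ± 1.92 CPM (SD, n = 2 each; log2 fold change -1.48, edgeR FDR = 8.46e-16). CIAO1, which delivers iron-sulfur clusters to viperin, fell by 0.37 on the log2 scale (edgeR FDR = 5.34e-05).

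MX1 (ENSG00000157601.14) lies at chr21:42791947-42841998 on the plus strand, 10626 bases beyond its paralog MX2, and genes on the opposite strand, TMPRSS2 among them, overlap it in part. It had 6.55 and 5.58 CPM in 786-O-Ctrl and 5.43 and 7.6 CPM in 786-O-VHL. The groups overlapped, and the log2 fold change of 0.22 (SE 0.212, 95% interval -0.21 to 0.66, edgeR FDR = 0.368) leaves room for a modest change in either direction. Only 16 counts stood behind the value of 786-O-VHL replicate 1, with a 95% Poisson interval of 3.1 to 8.81 CPM. MX2, which acts on nuclear import of viral genomes, had 4.23 and 4.85 CPM in 786-O-Ctrl and 7.46 and 15.0 CPM in 786-O-VHL (log2 fold change 1.55, SE 0.215, edgeR FDR = 3.91e-07), but without 786-O-VHL replicate 2 it was 0.72 and not called (edgeR FDR = 0.122).

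BST2 (ENSG00000130303.13), at chr19:17513748-17516439 on the minus strand, had 200.4 and 205 CPM in 786-O-Ctrl and 219 and 204 CPM in 786-O-VHL. The groups overlapped, and the 95% interval of the log2 fold change of 0.05 ran from -0.08 to 0.18 (SE 0.0641, edgeR FDR = 0.507). This is a narrow interval at between 645 and 4221 counts per library.

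An interferon-stimulated response element is bound by complexes of STAT and IRF proteins, and its core was taken as the letters GAAA, any 2 bases, and GAAA again. This core was searched on both strands in the RefSeq promoter windows of GRCh38.p14, from 250 bases before to 50 bases after each start, and 3.57% of 34943 windows held it. Of the 9 genes, 7 had at least 1 window, and OAS3, MX1, ISG15, ISG20, RSAD2 and BST2 each had at least 1 window with the core, that is, effectors that rose, fell and did not pass alike. The OAS1 window and further windows of MX1 and RSAD2 held no match, which says only that these letters are not in them. OAS2 and OASL, which both rose, were not searched. The 3.57% is a share of windows, whereas genes are counted here by at least 1 window, and MX1 and RSAD2 had more than 1. A match is a description and not a site shown to be bound, and the part of the core in the changes was not tested. The runs with the core are given below: each is written 5′ to 3′ on the strand of its gene, with the core, or its reverse complement of TTTC, 2 bases and TTTC, in capitals.
OAS3, chr12:112938321-112938350, plus strand: agaaagaaacGAAACTGAAAgcagggaatt
OAS3, chr12:112938452-112938481, plus strand: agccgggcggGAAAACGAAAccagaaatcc
MX1, chr21:41420559-41420588, plus strand: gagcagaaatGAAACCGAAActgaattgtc
MX1, chr21:41431844-41431873, plus strand: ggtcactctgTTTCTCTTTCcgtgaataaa
ISG15, chr1:1013377-1013406, plus strand: gcctcggGAAAGGGAAACCGAAActgaagc
ISG20, chr15:88638937-88638966, plus strand: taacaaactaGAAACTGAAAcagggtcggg
RSAD2, chr2:6877622-6877651, plus strand: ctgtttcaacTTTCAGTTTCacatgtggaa
BST2, chr19:17405738-17405767, minus strand: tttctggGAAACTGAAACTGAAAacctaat
In ISG15 and in BST2, 2 overlapping matches form 1 run. The exact core GAAACTGAAA stood before ISG20, which rose, before OAS3, which fell, and before BST2, which was not called, and RSAD2 held its reverse complement. The GAS core TTCNNNGAA, a site of STAT dimers, was present in 7.66% of windows and was found in OAS1, MX1 and BST2.

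Levels were compared between genes as CPM per kilobase of the canonical transcript (GENCODE on GRCh37). In 786-O-Ctrl the order was BST2 (202), ISG15 (90.1), OAS3 (24.1), OASL (2.28), MX1 (2.19), RSAD2 (1.94), ISG20 (1.58) and OAS2 (1.55). BST2, ISG15 and OAS3 stood well apart from the rest, and among the low genes OASL overlapped MX1, and ISG20 overlapped OAS2. In 786-O-VHL the order was BST2 (211), ISG15 (178), RSAD2 (15.1), OAS3 (12.1), ISG20 (11.4), OASL (10.4), OAS2 (5.38) and MX1 (2.35). RSAD2 thus moved from the 6th to the 3rd place and MX1 from the 5th to the 8th. Across libraries the values of RSAD2 and OAS3, of OAS3 and ISG20, and of ISG20 and OASL overlapped. Within each 786-O-VHL library RSAD2 was the highest of these 4 genes and OAS3 was above OASL. The place of ISG20 is not settled, since it was below OASL in replicate 1 and above OAS3 in replicate 2. OAS2 overlapped neither OASL nor MX1.

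The 786-O-VHL libraries differed from each other for these genes. Of the 8 effectors, 7 were higher in replicate 2 than in replicate 1, with a median log2 difference of 0.36 beside 0.00 over all genes tested. The difference was 0.83 for ISG20, 0.55 for RSAD2, 0.48 for MX1, 0.37 for OAS2, 0.35 for OASL, 0.33 for OAS3 and 0.18 for ISG15, and it was -0.10 for BST2. Absolute log2 differences between the 786-O-VHL libraries had a median of 0.16 over all genes tested, and those between the 786-O-Ctrl libraries of 0.08. The depth of these libraries differed together with this pattern, and its part was not tested.

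Among 14 other antiviral effectors that act on RNA or nucleic acids, 7 were higher, 3 were lower and 4 were not called. Their median log2 fold change was 0.24, and the share of all genes tested was 32.6% higher and 31.9% lower. SLFN5, a Schlafen family protein, was the only list gene past 4-fold and rose from 62.5 ± 3.01 to 281 ± 13.6 CPM (SD, n = 2 each; log2 fold change 2.16, edgeR FDR = 1.79e-20). APOBEC3F, a cytidine deaminase that restricts retroviruses, rose from 5.47 ± 0.317 to 18.6 ± 1.03 CPM (log2 fold change 1.73, edgeR FDR = 5.67e-10), and SHFL, an inhibitor of programmed ribosomal frameshifting that the table lists as C19orf66, rose by 0.87 on the log2 scale (edgeR FDR = 2.03e-07). The related deaminase APOBEC3B fell from 51.9 ± 1.49 to 16.9 ± 1.77 CPM (log2 fold change -1.56, edgeR FDR = 2.39e-13). SLFN11, which cleaves tRNA, and APOBEC3C fell by 0.64 and 0.53 on the log2 scale, so that the Schlafen and the APOBEC3 genes each had members on both sides.

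Of the genes that carry the interferon signal, the 10 listed interferon ligands and IRF9 were not analysed here. Of 10 receptors and transducers, 5 were higher, 1 was lower and 4 were not called, with a median log2 fold change of 0.19. Beside this, 32.6% of all genes tested were called higher and 31.9% lower. JAK2 rose from 12.8 ± 0.622 to 27.9 ± 2.76 CPM (SD, n = 2 each; log2 fold change 1.08, edgeR FDR = 2.86e-08), and STAT2, a subunit of the complex that binds the response element, rose from 48.8 ± 3.8 to 85.7 ± 0.712 CPM (0.82, edgeR FDR = 2.49e-10). The kinase TYK2 was the 1 called lower, with a log2 fold change of -0.25 (edgeR FDR = 0.00197). Its call was lost with library totals alone (-0.12, edgeR FDR = 0.129) and after thinning to the shallowest library (-0.23, edgeR FDR = 0.0572). The interferon gamma receptor gene IFNGR1 rose by 0.72 on the log2 scale (edgeR FDR = 1.63e-08). IFNGR2 had 0.37 (edgeR FDR = 0.0437), which was not called without the shallower 786-O-Ctrl library (edgeR FDR = 0.306) or without 786-O-VHL replicate 1 (edgeR FDR = 0.143). With DESeq2, 3 of the 10 were called higher, and the number also fell without the shallower 786-O-Ctrl library.

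The brakes of the pathway were fixed as SOCS1, SOCS3, PIAS1 and PTPN2, of which 2 were higher and 0 were lower. SOCS1, an inhibitor of JAK kinases, had 5.41 and 4.78 CPM in 786-O-Ctrl and 19.7 and 18.1 CPM in 786-O-VHL (log2 fold change 1.84, SE 0.171, edgeR FDR = 2.16e-10). SOCS3, an inhibitor of cytokine signalling of the same family, had 23.3 and 27.6 CPM in 786-O-Ctrl and 58.7 and 61.9 CPM in 786-O-VHL (1.27, edgeR FDR = 3.07e-12). PIAS1 and PTPN2 had log2 fold changes of 0.07 each that did not pass. Over the 41 pathway genes tested, 21 were higher, 8 were lower and 12 were not called. Their median log2 fold change was 0.22, beside 0.02 over all genes tested. The share of all genes tested was 32.6% called higher and 31.9% called lower, for the brakes as for the 41.

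**Figure D4:**
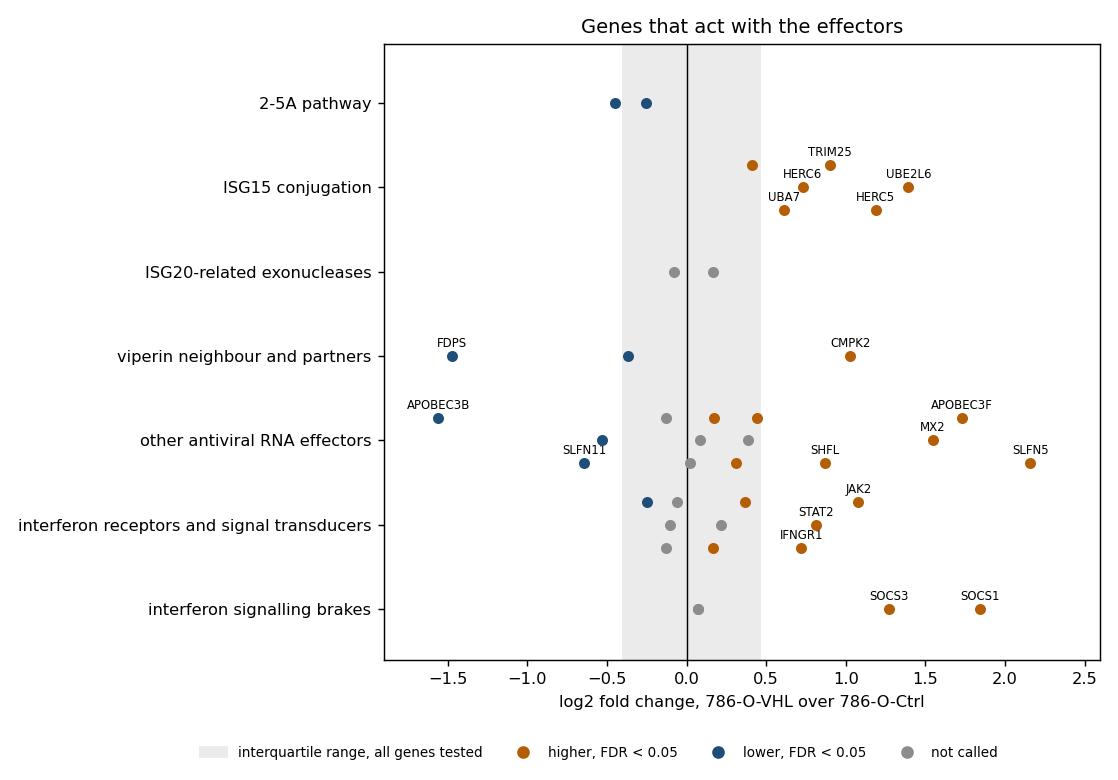
Log2 fold change, 786-O-VHL over 786-O-Ctrl, of the 41 pathway genes tested, with 1 point per gene and 1 row per list, coloured by the edgeR call at an FDR under 0.05, and the interquartile range of all genes tested shaded. All 6 points of ISG15 conjugation lie on the higher side, SOCS1 and SOCS3 lie at 1.84 and 1.27, and APOBEC3B and FDPS lie lowest at -1.56 and -1.48.

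The profiles over the 4 libraries were also compared by the Euclidean distance of log2 CPM centred on each gene's mean, as a description over 4 libraries of 2 groups. Among the effectors, RSAD2 and ISG20 were the closest pair at 0.327, followed by OAS2 and OASL at 0.407, and OAS3 was farthest from any other, at 1.09 from MX1. Over all genes tested, the nearest profile was UNC5A for RSAD2, SMPDL3B for ISG20, NME5 for OAS2, TEAD2 for OASL, C11orf71 for ISG15, MYO9A for the OAS1 row, POLR3K for OAS3, PPM1J for MX1 and RPS27 for BST2. These distances were between 0.00703 and 0.143, each smaller than the distance to the nearest effector. Far more genes than effectors were searched, which by itself favours a smaller distance, so no conclusion is drawn from this.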

How the data were processed

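Total RNA from 2 samples of each subline (786-O-Ctrl, 786-O-VHL) was made into Illumina TruSeq libraries by the authors, who deposited 1 table of raw counts per gene. The submitters' processing notes name CASAVA, STAR and hg19; for the counting tool, the strand setting and the annotation, nothing is given in the sources used here. Totals were 2807779 to 22141263 counts, and 577 genes were removed by filterByExpr (minimum count 10), leaving 12335. Counts were scaled by TMM and tested with edgeR 4.0.16 in R 4.3.3 (quasi-likelihood F test, Benjamini-Hochberg FDR). Standard errors are those implied by the F statistic. The common dispersion corresponded to a biological coefficient of variation of 4.31%. Poisson intervals and limits cover counting error only. The tests were checked on simulated counts with 200 of 12335 genes changed, of which edgeR recovered 197, with 12 false calls. Far more genes were called in the real data, so the check does not cover scaling or error rates in that setting.

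Samples were grouped by genotype label. Coordinates and lengths come from GENCODE on GRCh37, and promoter windows from RefSeq on GRCh38.p14. In 353 rows the symbol differed from that of the identifier, and 75 symbols were duplicated. Alternatives were DESeq2 1.42.0, limma-voom (limma 3.58.1), RLE factors, library totals alone, no filter, at least 10 counts in every library, thinning to the shallowest library, a prior count of 2 and each library left out in turn. Named were all members, VHL, the nearest profiles and, of each pathway list, at most 4 genes per direction with the largest change at FDR under 0.05, or the whole list where it held 4 or fewer. The members and lists were chosen with earlier results of these data known. Some listed genes are not reported here.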

Additional observations from a re-analysis of the deposited data

How the results depend on the processing

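Under the 12 alternatives, 5 effectors were higher in each but library totals alone, where 6 were, since BST2 was then called (log2 fold change 0.18). In all 12, 1 effector was lower, and 3 were past 4-fold except with library totals alone (4). OAS2, OAS3, OASL, ISG15, ISG20 and RSAD2 kept their direction and call in 12 of 12. Library totals alone moved the median log2 fold change of all genes from 0.02 to 0.15 and the share of higher among called genes from 50.5% to 62.1%. Pathway genes called higher numbered between 16 (DESeq2) and 25 (library totals alone), and those called lower between 6 and 8. Some uncalled values changed sign: ISG20L2 was 0.051 with library totals alone and 0.021 after thinning, and MX1 was -0.073 after thinning. With each library left out in turn, MX1 ranged from -0.18 to 0.32, AEN from -0.17 to 0.27 and PTPN2 from -0.021 to 0.11, each lowest and below 0 without 786-O-VHL replicate 2. The cause was not tested. With DESeq2, PDE12 (FDR = 0.109), CMPK2 (0.0881), IFNGR2 (0.152) and USP18 (0.266) were not called. No paired analysis was possible because both 786-O-Ctrl columns carry the same replicate number. The depth of 786-O-VHL replicate 1 limits MX1 and ISG20, and thinning to that depth also ended the call of the OAS1 row (edgeR FDR = 0.0587). Thinning ended the call of CMPK2 too, with a log2 fold change of 0.21 (edgeR FDR = 0.721). The calls of PDE12 (edgeR FDR = 0.152), USP18 (0.106), IFNGR2 (0.404) and TYK2 (0.0572) were likewise lost.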
